A study of Arabidopsis thaliana with 15 samples.

Results

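The 6 plastid genes rpoA, rpoB, rpoC1, rpoC2, accD and clpP were followed in whole Arabidopsis thaliana seedlings (ecotype Columbia) in which the guard cell factor FAMA, or FAMA fused to the EAR repression domain, was switched on with estrogen. Each was represented by the 1 probe set that names that plastid gene and no other. Thus 6 of the 22746 probe sets tested on the ATH1 array belonged to the group, and all 6 had a signal on each of 15 arrays. The annotation used here gave 13286 named genes a probe set of their own. Seedlings grew for 5 days at 22 °C in constant light on a sucrose medium and were then moved to fresh plates. Transcripts were read in 5 groups of 3 arrays. They were 5-day-old controls 4 h after the move without estrogen, 7-day-old controls 48 h after it, FAMA seedlings after 4 h or 48 h on 10 µM estrogen at the same ages, and FAMA-EAR seedlings after 48 h on 10 µM estrogen. FAMA drives the last step in the making of guard cells, the paired cells around a stomatal pore. The EAR domain recruits co-repressors, so that a fusion to it represses the genes that the factor binds. The labels describe plants with an estrogen-inducible cassette, but they do not say which construct the controls carried, which promoter or cells drove the cassette, or how many lines were used. A comparison with a control therefore holds the estrogen and the induced protein together, whereas FAMA-EAR and FAMA seedlings at 48 h had the same estrogen treatment.

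Plastids are transcribed by 2 kinds of RNA polymerase. The bacterial-type enzyme has a core made in the plastid from rpoA (the alpha subunit, on which the core assembles), rpoB (beta) and rpoC1 and rpoC2 (the beta-prime and beta-double-prime pieces of the catalytic part), and it needs sigma factors and other proteins from the nucleus. The other enzyme is phage-type, is made from nuclear genes, and is known for reading the rpoB operon, accD and, in part, clpP. accD codes for a subunit of the plastid acetyl-CoA carboxylase, the first committed enzyme of fatty acid synthesis, and clpP for a proteolytic subunit of the plastid Clp protease. In young leaves the phage-type enzyme is known to be most active early, before photosynthesis genes are read strongly by the bacterial-type one.

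In the TAIR10.1 reference the 6 genes lay at 4 places of the plastid genome. rpoC2 (ArthCp012, 15938 to 20068), rpoC1 (ArthCp013, 20251 to 23084) and rpoB (ArthCp014, 23111 to 26329) formed 1 block, with 182 bases between rpoC2 and rpoC1 and 26 between rpoC1 and rpoB. Beyond rpoC2, at 214 bases, lay rps2, a gene of the small ribosomal subunit. accD (ArthCp031, 57075 to 58541) stood between rbcL and psaI. clpP (ArthCp048, 69910 to 71882) stood between rps12 and psbB, and rpoA (ArthCp055, 77901 to 78890) lay 228 bases from petD. These spans are those of the annotated genes, introns included, and which part of a gene its probes match was not used here.

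The induced gene followed its labels, with a mean FAMA signal of 245.9 and 243.5 in the controls, 12377 and 18024 after 4 h and 48 h of FAMA, and 3060 with FAMA-EAR. Markers of green tissue (RCA 16736 to 26295, LHCB4.1 12056 to 23084), root (PYK10 10990 to 21454) and guard cells (GC1 2101 to 11730) had signals well above the array medians on all 15 arrays. Median signals lay between 188.2 and 199.0 on 14 arrays and at 239.4 on the third FAMA 4 h array. For the actin and GAPDH control transcripts, the 3' signal over the 5' signal rises when RNA is broken down or copied incompletely. Its log2 value, averaged over both transcripts, was 0.533 to 0.731 on the FAMA-EAR arrays, and at most 0.495 on the other arrays. It was 0.297 to 0.495 in the 48 h controls and 0.191 to 0.214 with FAMA at 48 h. Whether the 3 arrays of a group came from separate cultures is not stated, so the p-values reflect the scatter among these arrays only, part or all of which may be technical.

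Of the 6 genes, 5 had lower signals with FAMA-EAR at 48 h than in the 48 h controls and passed the test, namely accD, rpoC1, rpoB, rpoC2 and clpP. The mean signals of the controls were between 2.32 and 5.03 times those of the FAMA-EAR seedlings. The 6th gene, rpoA, had its 3 FAMA-EAR signals above all 3 control signals and did not pass. The test was limma on log2(signal + 20), 2-sided, with Benjamini-Hochberg adjustment over all 22746 probe sets and a threshold of 0.05. It called 1.81% of all probe sets lower and 1.39% higher in this comparison. Log2 fold changes below are on that scale, which understates the change of weak signals.

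Among the polymerase genes, rpoC1 signals were 1033, 1234 and 1191 in the 48 h controls and 418.2, 312.3 and 352.8 with FAMA-EAR. The lowest control stood far above the highest FAMA-EAR array, and the rpoC1 log2 fold change was -1.63 (SE 0.174, limma adjusted p = 7.1e-06). For rpoC2 the controls read 506.7, 703.9 and 642.2 and the FAMA-EAR arrays 247.5, 350.1 and 160.1. The groups did not overlap, although the FAMA-EAR arrays differed widely among themselves, and the change was -1.27 (SE 0.256, adjusted p = 0.00674). Without the third FAMA-EAR array the rpoC2 change was -1.01 (adjusted p = 0.0531), and without a trend in the variance it was -1.27 (adjusted p = 0.0835), so its call rests on that array and that choice.

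rpoB had the weakest signal of the group, with 193.8, 271.6 and 191.6 in the controls and 77.3, 74.6 and 48.9 with FAMA-EAR. Again no array of one group reached the other, and rpoB fell by 1.46 (SE 0.255, adjusted p = 0.00187). At signals this low the size of a fold change depends on the offset, and with an offset of 99 in place of 20 the change was -0.933. rpoC2, rpoC1 and rpoB, read from 1 transcription unit, changed by between -1.63 and -1.27. Their 95% intervals (-1.81 to -0.74, -1.99 to -1.26 and -1.99 to -0.928) overlapped one another, which is no test of likeness. Values of this size were also seen elsewhere in the plastid genome, as in psbB (-1.32) and rps15 (-1.32). The 63 other plastid genes ranged from -2.03 to 0.33.

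rpoA, the core subunit encoded elsewhere, read 6239, 7264 and 7380 in the controls and 9233, 9272 and 8416 with FAMA-EAR. All 3 FAMA-EAR signals were the higher ones, by a ratio of means of 1.29, and the log2 fold change was 0.368 (SE 0.156, 95% interval 0.0428 to 0.693). This missed the threshold (limma adjusted p = 0.253, 0.0285 before adjustment). Non-overlap in this direction was seen for 10.7% of all probe sets and in the lower direction for 11.4%. The interval of rpoA lay above 0 and those of the other core subunits below it. The difference between subunits was itself not tested.

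accD, the fatty acid gene, had the largest fall of the 6. Its signals were 996.8, 1208 and 1140 in the controls and 299.9, 214.4 and 150.9 with FAMA-EAR, a log2 fold change of -2.27 (SE 0.171, 95% interval -2.63 to -1.92, adjusted p = 9.61e-08). Among 69 plastid genes with a probe set of their own, this was the lowest value against the 48 h controls, and that of rpoA was the highest. For the protease gene clpP the controls read 3849, 6033 and 5272 and the FAMA-EAR arrays 2895, 2095 and 1529. clpP fell by 1.23 (SE 0.187, adjusted p = 0.000466), and its lowest control still exceeded its highest FAMA-EAR signal.

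**Figure D1:**
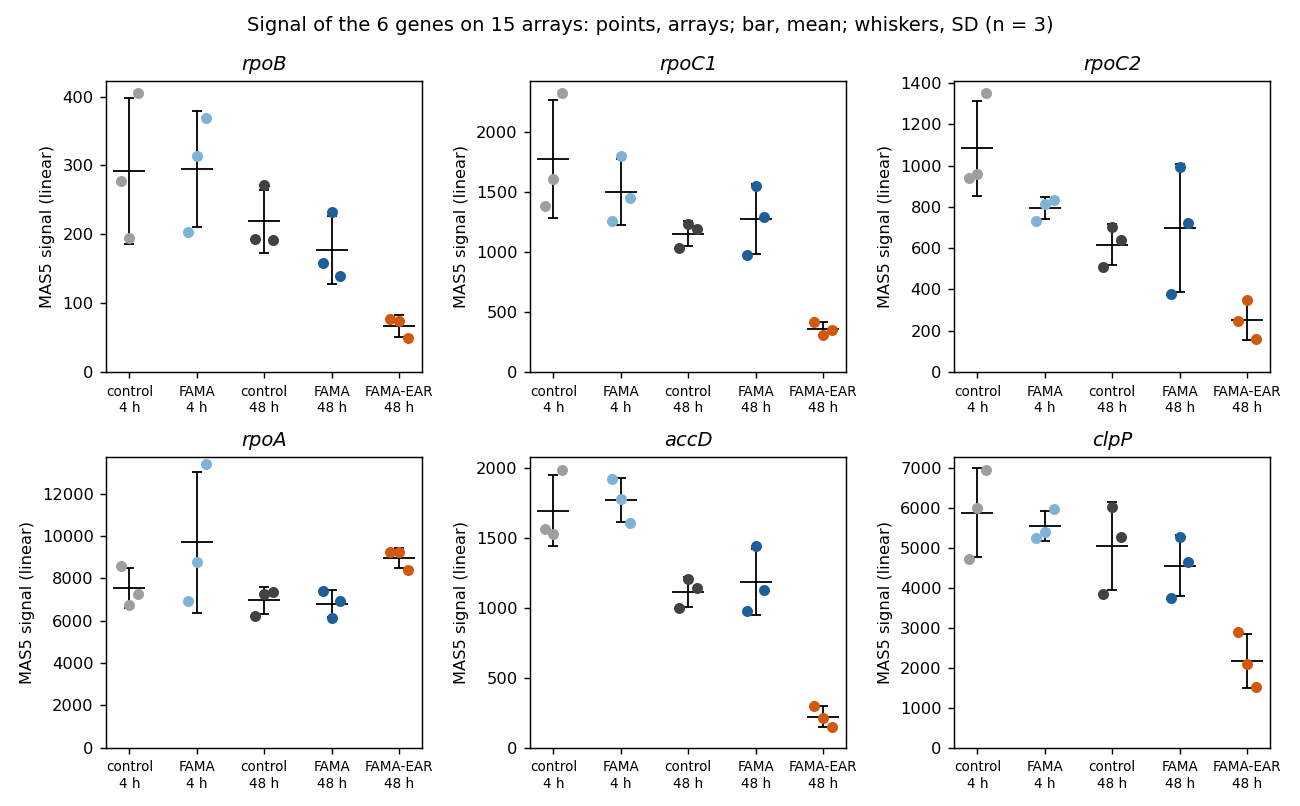
MAS5 signal (linear scale) of each of the 6 genes, 1 panel per gene with its own axis, in the 5 groups; points are arrays, bars are means and whiskers are SD (n = 3). The FAMA-EAR points lie below all other points for rpoC2, rpoC1, rpoB, accD and clpP, and above all FAMA 48 h and control 48 h points for rpoA.

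The 3' to 5' ratio moved with these falls, being highest on the 3 FAMA-EAR arrays. With the ratio added to the fit as a covariate, an alternative chosen after the ratio had been seen, accD changed by -2.41 (adjusted p = 0.000241), rpoC2 by -1.90 (0.0309), rpoC1 by -1.66 (0.0107) and clpP by -1.55 (0.0218). These were as large as before, with wider errors. No other array reached the ratio of the FAMA-EAR arrays. The fit therefore rests on scatter of the ratio within groups and cannot separate the ratio from FAMA-EAR. rpoB changed by -1.80 and no longer passed (adjusted p = 0.0614), and rpoA by 0.338 (adjusted p = 0.735). In whole seedlings, fewer cells or plastids of a kind and less of a transcript per plastid cannot be told apart. Whether the array signal of a plastid gene follows the amount of its transcript was not tested either. The nuclear green tissue marker LHCB4.1 read 20626 to 23084 with FAMA-EAR and 19541 to 22516 in the controls, and RCA read 19654 to 24094 and 22016 to 26295, so that both overlapped between the groups.

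Against FAMA seedlings at 48 h, which had the same estrogen treatment, the same 5 genes were lower with FAMA-EAR. Here limma called 11.1% of all probe sets lower and 11.6% higher. The comparison shares its FAMA-EAR arrays with the one above, so the pair are not independent. The marker signals also parted between these 2 groups. With FAMA, LHCB4.1 read 12056 to 13734, RCA 16736 to 17488, PYK10 10990 to 13270 and GC1 9282 to 11730. In the same order, the markers read 20626 to 23084, 19654 to 24094, 16914 to 19945 and 2907 to 3031 with FAMA-EAR. The part of such differences in the values below was not tested. accD read 978.4, 1443 and 1130 with FAMA and differed with FAMA-EAR by -2.34 log2 units (SE 0.171, adjusted p = 1.61e-09). rpoC1 read 972.4, 1551 and 1293 with FAMA and differed by -1.75 (SE 0.174, adjusted p = 1.42e-07). Neither gene had a FAMA signal as low as its highest FAMA-EAR signal.

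The other 3 falls were smaller. rpoC2 read 376.4, 992.7 and 722.4 with FAMA, the widest relative spread of any member in that group, and differed by -1.35 (SE 0.256, adjusted p = 0.000396). rpoB read 157.9, 232.9 and 140.0 with FAMA and differed by -1.17 (SE 0.255, adjusted p = 0.00156). The lowest arrays of both stayed above all FAMA-EAR arrays, by a narrow margin in rpoC2. clpP read 3746, 5268 and 4658 with FAMA and differed by -1.10 (SE 0.187, adjusted p = 0.000129).

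rpoA read 7384, 6136 and 6913 with FAMA, below each FAMA-EAR array, and differed by 0.40 (SE 0.156, 95% interval 0.0743 to 0.725, adjusted p = 0.0733). Non-overlap in this direction was seen for 20.7% of all probe sets and in the lower direction for 20.5%. The rpoA call depends on the fit. It passed with only the groups compared (adjusted p = 0.00438), with array weights (0.00574) and without the third (0.00993) or the first FAMA 4 h array (0.0251), which add to the shared spread but to neither mean. It also passed with array medians set equal (0.0417) and among probe sets above the 40th percentile (0.0491). It did not pass with the 3' to 5' ratio as a covariate (adjusted p = 0.774). With that covariate rpoB missed the threshold (-1.74, adjusted p = 0.13), rpoC2 moved to -2.39 (adjusted p = 0.0205), and with the offset of 99 rpoB was at -0.724.

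**Figure D2:**
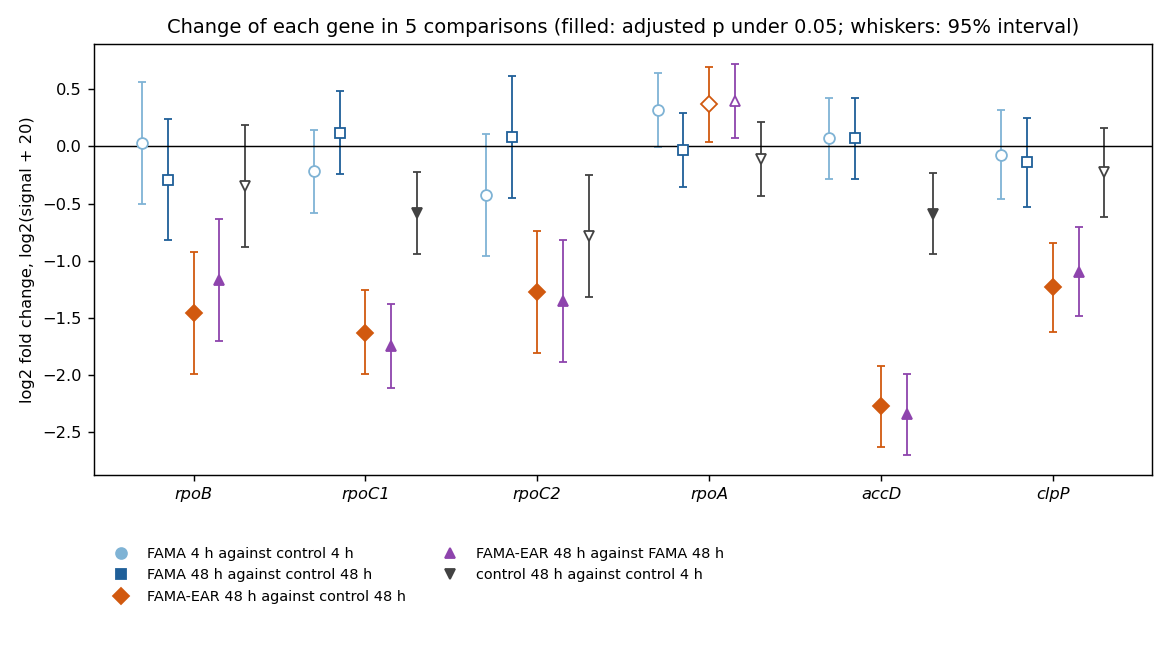
Log2 fold change of log2(signal + 20) for each of the 6 genes in 5 comparisons; whiskers are 95% intervals and filled symbols passed the limma threshold. The 5 genes other than rpoA lie between -2.34 and -1.10 in both comparisons with FAMA-EAR while rpoA lies at 0.37 and 0.40, and the FAMA comparisons with control lie between -0.42 and 0.32.

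FAMA itself gave no called change of the 6 genes at either time. At 4 h, 0 of 6 passed (limma; also 0 at an unadjusted p under 0.05), against 2.92% of all probe sets. At 48 h, 0 of 6 passed (again 0 at an unadjusted p under 0.05), against 21.6% of all probe sets. The 48 h values were -0.29 for rpoB (95% interval -0.823 to 0.24), -0.14 for clpP (-0.527 to 0.252), 0.12 for rpoC1 (-0.243 to 0.481), 0.08 for rpoC2 (-0.455 to 0.614), 0.07 for accD (-0.285 to 0.427) and -0.03 for rpoA (-0.357 to 0.294). The averaged 3' to 5' ratio was lower with FAMA than in the controls at this time. Only actin parted the groups, and the GAPDH values overlapped. The part of the ratio in these values was not tested beyond the covariate fit, in which 0 of 6 passed.

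At 4 h the widest departure was that of rpoC2. Its controls read 942.0, 960.1 and 1351 and its FAMA arrays 731.8, 816.5 and 831.9. All 3 FAMA arrays were lower, with a log2 fold change of -0.42 (95% interval -0.958 to 0.111, adjusted p = 0.408), while such non-overlap was seen for 6.76% of all probe sets. rpoA read 8594, 6748 and 7279 in the controls and 6942, 8781 and 13390 with FAMA, a change of 0.32 (adjusted p = 0.307). The third FAMA array, whose median signal was also the highest of all arrays, held this value up. Without it the change was 0.0575 (adjusted p = 0.904), and without the first FAMA array it was 0.53 and passed (adjusted p = 0.0483).

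The other 4 genes at 4 h lay between -0.22 and 0.07. accD read 1563, 1530 and 1988 in the 4 h controls and 1923, 1780 and 1609 with FAMA. rpoC1 read 1386, 1609 and 2322 in these controls and 1258, 1800 and 1449 with FAMA. Both genes had overlapping groups. rpoB read 276.8, 194.6 and 404.7 without FAMA and 202.7, 313.0 and 369.0 with it. clpP read 4715, 5999 and 6950 without FAMA and 5255, 5405 and 5971 with it, so in neither gene did the groups part. The FAMA effect at 48 h did not differ from that at 4 h past the threshold for any of the 6 (0 at an unadjusted p under 0.05, against 13.6% of all probe sets called), with differences between -0.35 for rpoA and 0.50 for rpoC2.

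In seedlings without estrogen, 2 of the 6 genes were lower at 48 h, on day 7, than at 4 h, on day 5, where 3.81% of all probe sets were called lower and 3.37% higher. The accD signal averaged 1694 ± 255 at 4 h and 1115 ± 108 at 48 h (SD, n = 3 each), a change of -0.589 (SE 0.171, limma adjusted p = 0.0385). For rpoC1 the means were 1772 ± 489 and 1153 ± 105 (SD, n = 3 each), a change of -0.582 (SE 0.174, limma adjusted p = 0.045). In both genes the 2 groups of arrays did not overlap, as was seen for 11.3% of all probe sets in this direction. These calls are weak. The accD call ended when any 1 of the 6 control arrays was left out (adjusted p between 0.0568 and 0.201), and the rpoC1 call when any but the first 4 h control was (between 0.0752 and 0.292). The accD call also ended without the second FAMA-EAR array (0.0506), and the rpoC1 call without that array (0.0506), the third FAMA-EAR (0.0576), the third FAMA 4 h (0.0582) or the third FAMA 48 h array (0.0572), which enter through the shared spread. Both were also lost when the array medians were set equal (0.087 for accD and 0.0864 for rpoC1).

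rpoC2 differed more between the 2 ages, from 1084 ± 231 to 617.6 ± 100.9 (SD, n = 3 each), without overlap, but with a wider error (-0.785, SE 0.256, 95% interval -1.32 to -0.251, adjusted p = 0.0717). When only the 2 control groups were fitted it passed (adjusted p = 0.0172), and rpoC1 did not (adjusted p = 0.0661). rpoB (-0.345, adjusted p = 0.565), clpP (-0.227, adjusted p = 0.627) and rpoA (-0.112, adjusted p = 0.826) did not pass and overlapped between the ages. All 6 values were below 0. Among the 63 other plastid genes, 11 fell and 0 rose in this comparison (limma; 28 lower and 0 higher at an unadjusted p under 0.05), with a median of -0.345. The count of 11 ranged from 4 (without a variance trend) to 21 (with array weights) over the 26 alternatives.

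Ordered by group means, rpoC2, rpoC1, rpoB, accD and clpP had FAMA-EAR last and the pair of 4 h groups first. The step from the next group down to FAMA-EAR was without overlap in each of these 5 genes. That next group was the 48 h controls for rpoC2, rpoC1 and accD, and FAMA at 48 h for rpoB and clpP. Non-overlap in the lower direction was seen for 11.4% of all probe sets against these controls and for 20.5% against FAMA. Of the other steps between neighbouring groups, 2 were without overlap. They were from the 4 h controls to FAMA at 4 h in rpoC2 (such non-overlap was seen for 6.76% of all probe sets) and from the 4 h controls to FAMA at 48 h in accD. rpoA was ordered as FAMA 4 h, FAMA-EAR 48 h, control 4 h, control 48 h and FAMA 48 h, and no neighbouring pair in that order was free of overlap. Its highest single signal, 13390, was the third FAMA 4 h array.

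The falls with FAMA-EAR were shared by much of the plastid genome. Of 63 other plastid protein genes with a probe set of their own, 40 fell and 0 rose against the 48 h controls (limma; 47 lower and 2 higher at an unadjusted p under 0.05), with a median log2 fold change of -0.944 and a range of -2.03 to 0.33. The median over all probe sets was -0.00816. By function, 20 of 33 genes of the photosystems, cytochrome complex, ATP synthase and Rubisco fell, as did 8 of 10 genes of the NDH complex, which carries electrons around photosystem I, and 8 of 15 ribosomal protein genes. With the 3' to 5' ratio as a covariate these counts were 22 of 63, 12 of 33, 4 of 10 and 3 of 15. The fall of accD, at -2.27, was beyond that range at its lower end, and the value of rpoA, at 0.37, just beyond it at its upper end, where psbZ was at 0.33. Of the 63 other genes, 52 were below 0 and 11 were at 0 or above. rpoC1 was 12th, rpoB 15th, rpoC2 21st and clpP 24th from the lowest of the 69. Across these 69 genes the FAMA-EAR change had a Spearman correlation of -0.34 with gene length, 0.33 with the control signal and 0.50 with the change between the ages in controls, which shares the 48 h control arrays with it. Against FAMA at 48 h, limma called 38 of the 63 other genes lower with FAMA-EAR and 3 higher. With the 3' to 5' ratio as a covariate 18 were called lower. There accD was 2nd from the lowest of the 69, after petL (-2.45). rpoA was 66th, below psbZ (0.638), rpl22 (0.552) and rps3 (0.473).

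**Figure D3:**
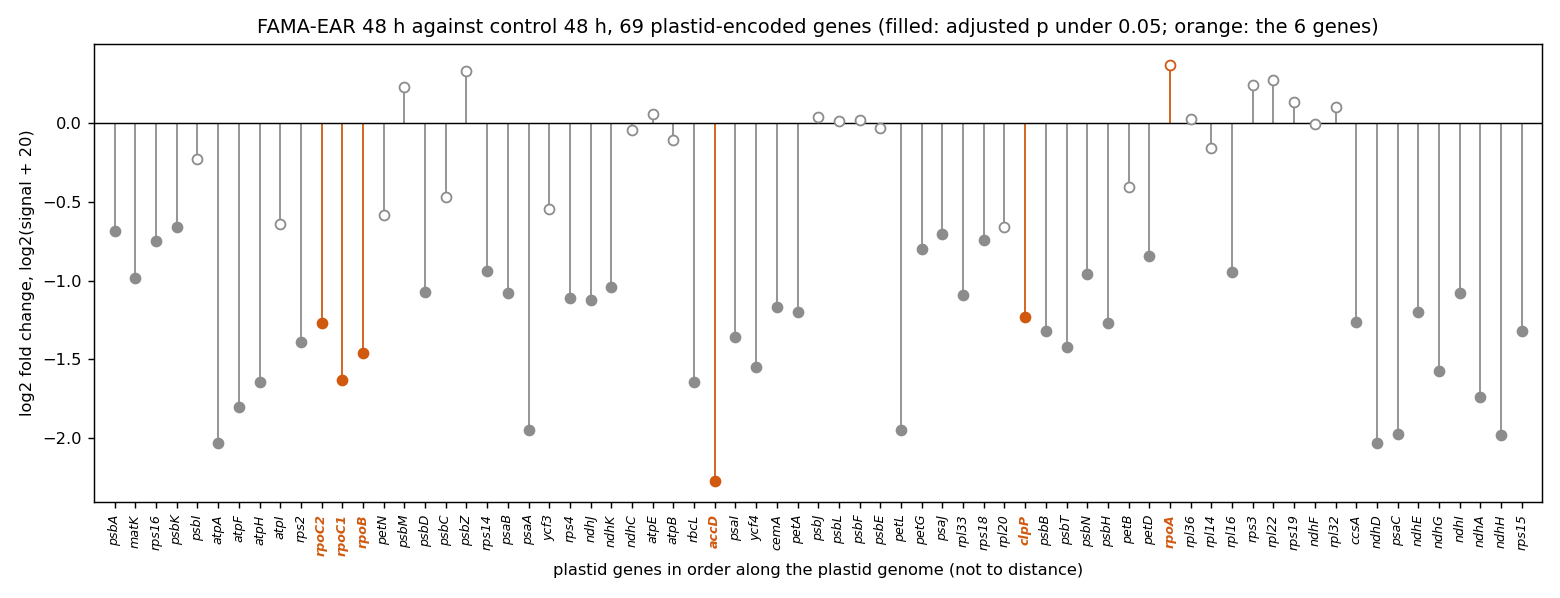
Log2 fold change of FAMA-EAR 48 h against control 48 h for 69 plastid genes in their order along the plastid genome (distances not to scale); filled points passed the limma threshold and the 6 genes are in orange. accD at -2.27 is the lowest point and rpoA at 0.37 the highest, and 40 of the 63 other genes are filled, all of them below 0.

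To see how the members stood within the plastid transcripts, the median log2(signal + 20) of the 63 other plastid genes was taken on each array and subtracted. That plastid median was lower by 1.21 (range -1.45 to -0.97 over the 3 arrays) with FAMA-EAR than its mean in the 48 h controls, a different quantity from the median of the gene changes given above. Relative to it, rpoA was higher by 1.58 (1.38 to 1.73) and accD was lower, at -1.07 (-1.28 to -0.85). Most of the rpoA value is the fall of the plastid median, since the own change of rpoA was 0.368. Of the 63 other genes, 11 were also at 0 or above by their own changes, among them psbZ (0.33), rpl22 (0.272) and rps3 (0.241). A high value on this measure is therefore not particular to rpoA. rpoC1 stood at -0.42 (-0.62 to -0.2) and rpoB at -0.25 (-0.33 to -0.12). clpP, at -0.03 (-0.24 to 0.2), and rpoC2, at -0.07 (-0.36 to 0.43), lay on both sides of 0. This measure compares with a shift in level taken over different probe sets, not with the change of a middle gene. By their own changes rpoC2 (-1.27) and clpP (-1.23) were below the median gene change of -0.944. With FAMA at 48 h the same measure was between -0.36 for rpoB and 0.05 for rpoC1, and it was -0.10 for rpoA. These are descriptions without a test.

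**Figure D4:**
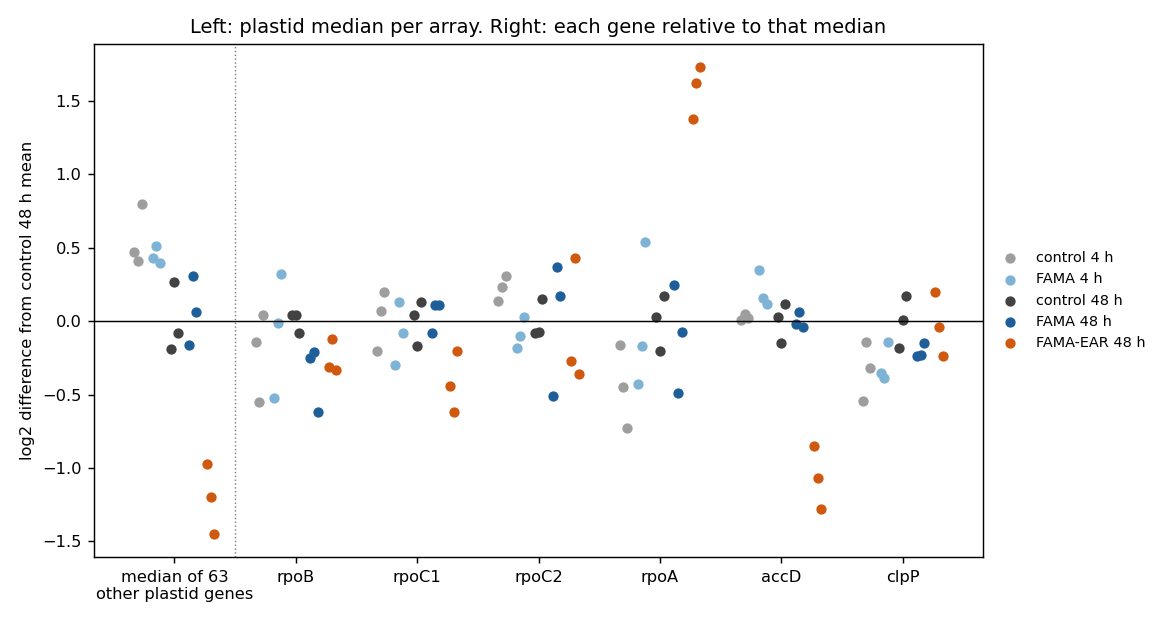
Log2 difference from the mean of the 48 h controls, per array, for the median of the 63 other plastid genes (left) and for each of the 6 genes after that median was subtracted (right); colours are the 5 groups. The FAMA-EAR points of rpoA lie between 1.38 and 1.73 and those of accD between -1.28 and -0.85, apart from the other groups, while those of rpoC2 and clpP lie around 0.

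Genes that share a transcription unit or gene cluster with a member were then compared with it. Downstream of rpoC2 lie rps2 and the ATP synthase genes atpI, atpH, atpF and atpA. Against the 48 h controls 4 of these 5 fell with FAMA-EAR, with rps2 at -1.39 (adjusted p = 0.000314), atpH at -1.64 (0.00211), atpF at -1.80 (2.49e-06) and atpA at -2.03 (2.49e-06). atpI was at -0.639 (adjusted p = 0.222). The range thus took in the falls of rpoC2, rpoC1 and rpoB. Downstream of accD, psaI (a photosystem I subunit) was at -1.36 (adjusted p = 1.29e-05), ycf4 (photosystem I assembly) at -1.55 (0.000204), cemA (an envelope membrane protein) at -1.17 (0.000286) and petA (cytochrome f) at -1.20 (0.000521). All 4 fell, each by less than accD. The clpP cluster had 1 of 2 other genes with a probe set, rpl20, a large ribosomal subunit gene, at -0.659 (adjusted p = 0.10).

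rpoA closes a cluster of ribosomal protein genes, and 6 of its 10 other genes had a probe set of their own. Only rpl16 fell, by 0.944 (adjusted p = 0.00192). The values of rps19 (0.132), rpl22 (0.272), rps3 (0.241), rpl36 (0.0231) and rpl14 (-0.158) did not pass, and the median of the 6 was 0.0774, against -0.745 for the 15 plastid ribosomal protein genes as a whole. Against FAMA at 48 h, rpl22 was higher by 0.552 (adjusted p = 0.00147) and rps3 by 0.473 (adjusted p = 0.0066), in the direction of rpoA, and rpl16 was lower (-0.731, adjusted p = 0.00215). Next to rpoA, outside this cluster, petD (cytochrome complex subunit IV) fell by 0.842 against the controls (adjusted p = 0.0163). It passed under 22 of 26 alternatives, and did not without the second 48 h control (adjusted p = 0.0603) or the third (0.0626), without the second FAMA-EAR array (0.0722) or with the 3' to 5' ratio as a covariate (0.32). With the 3' to 5' ratio as a covariate, atpH (adjusted p = 0.0721) and rpl16 (0.103) lost their calls against the controls, and rpl22 (0.564), rps3 (0.645) and rpl16 (0.255) lost theirs against FAMA. Without a variance trend atpH missed the threshold against the controls (adjusted p = 0.0531). Against FAMA, rps3 missed it with the first FAMA 48 h array left out (adjusted p = 0.0674) and with quantile normalization (0.0941).

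Few of the nuclear partners of these genes could be read. None of 6 sigma factors, 12 polymerase-associated proteins and 4 nuclear subunits of the acetyl-CoA carboxylase had a probe set naming that gene alone. This holds for the annotation used, which left 8730 probe sets without a gene, and not for the array as such. Of the 3 phage-type polymerases only RPOTmp, which serves mitochondria and plastids, did. Its log2 fold change was 0.0382 with FAMA-EAR against the 48 h controls (SE 0.302, adjusted p = 0.984) and -0.375 against FAMA (adjusted p = 0.463), and -0.834 with FAMA at 4 h (adjusted p = 0.156). It passed in none of the 6 comparisons, though it had an unadjusted p under 0.05 in 3 of them. Its largest value was 1.25, for the FAMA effect at 48 h against that at 4 h (limma adjusted p = 0.0578). That value passed under 5 of 25 alternatives. Between the control ages RPOTmp was at -0.90 (limma adjusted p = 0.0815) and passed under 2 of 25.

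Of 14 nuclear Clp genes, 5 had a probe set, namely CLPP4 (a proteolytic core subunit), CLPR3 (a core subunit without catalytic residues), CLPS1 (a substrate adaptor), CLPT1 and CLPT2 (accessory subunits). Against the 48 h controls FAMA-EAR changed 0 of the 5 (limma; 1 higher at an unadjusted p under 0.05), with values between -0.196 and 0.193 where clpP fell by 1.23. With FAMA at 48 h, where limma called 11.0% of all probe sets lower, CLPP4 fell by 0.494 (SE 0.107, adjusted p = 0.00158) and CLPT2 by 0.259 (SE 0.0896, adjusted p = 0.0431). In the direct comparison at 48 h, CLPT2 (0.447, adjusted p = 0.000703), CLPT1 (0.328, adjusted p = 0.0233) and CLPP4 (0.298, adjusted p = 0.0496) were higher with FAMA-EAR, and clpP was lower. All 3 lost this call with the 3' to 5' ratio as a covariate (adjusted p = 0.567, 0.958 and 0.794). In the uninduced seedlings CLPP4 rose by 0.39 (adjusted p = 0.0276) and CLPS1 by 0.436 (adjusted p = 0.0189) between the ages. These Clp calls, apart from the CLPP4 fall with FAMA and the CLPT2 difference at 48 h, each rest on single arrays. The CLPP4 difference at 48 h passed under 8 of 26 alternatives and the CLPT2 fall under 14 of 26. Leaving out any 1 of the 3 FAMA 48 h arrays ended the CLPT2 fall (adjusted p between 0.0736 and 0.152) and the CLPP4 difference at 48 h (between 0.0907 and 0.149). The CLPT1 difference ended without the second FAMA array (0.158) or the third FAMA-EAR array (0.0917). Between the ages, CLPP4 missed the threshold without the second 4 h control (0.131) and CLPS1 without the third 48 h control (0.0815), among others.

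Across the 15 arrays the 5 genes that fell varied together, with Pearson correlations of log2(signal + 20) between 0.896 (rpoC2 with rpoB) and 0.969 (rpoC1 with accD). The correlations of rpoA with them were between -0.268 and -0.012. These arrays share group means, scaling and RNA preparations, so the values describe the pattern only. The 3 probe sets most like each of the 5 were all plastid genes. For accD they were ndhA (0.987), atpA (0.983) and petL (0.98), and for rpoC1 rps4 (0.99), atpA (0.979) and ndhA (0.978). clpP was most like ycf4 (0.984), psaB (0.975) and cemA (0.969), rpoC2 like its neighbour rps2 (0.975), then rps15 (0.957) and ndhH (0.95), and rpoB like psbB (0.955), psaC (0.947) and ndhH (0.946). The nearest to rpoA were nuclear genes, AT5G28610 (0.939), AT1G63040 (0.92) and ADPG1 (0.91), none of which passed with FAMA-EAR against the controls (adjusted p = 0.668, 0.469 and 0.493). On the third FAMA 4 h array, rpoA was 0.95 log2 units above its mean in the 48 h controls, and at most 0.42 on any other array. That array also had the highest median signal, and the rpoA correlations were not recomputed without it.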

How the data were processed

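The authors deposited a linear signal intensity, made with MAS5, for each of 22810 probe sets on 15 arrays. MAS5 is named per the submitters' processing notes, and neither its version nor its scaling target is given there. The mean of each array without its lowest and highest 2% of probe sets was 500.04 to 500.05, so the deposited intensity was scaled to a common level. MAS5 subtracts mismatch probes, which makes weak signals less exact. No detection calls were used, and the number of arrays limits the precision.

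After 64 control probe sets were left out, log2(signal + 20) was fitted in limma 3.58.1 (R 4.3.3) with 5 group means, 10 residual degrees of freedom, a variance trend and Benjamini-Hochberg adjustment over 22746 probe sets. The offset is the median signal, 197.4, divided by 10 and rounded. An exact test of 3 arrays against 3 cannot go below p = 0.1. The fit was also run on simulated data with independent noise and no differences in RNA quality or scaling between arrays. That run cannot show how the fit behaves where the 3' to 5' ratio differs between groups. Probe sets were named from the platform annotation matched to TAIR10.1: 13513 named 1 gene (13436 found there), 503 several and 8730 none. Named genes were the 6 members, genes sharing a cluster with a member, petD beside rpoA (chosen after its value was seen) and nuclear partners. Added to these were the 3 probe sets most correlated with each member, among those naming 1 gene that is no member. The members and lists were chosen with earlier results of these data known. Same-numbered arrays of different groups had correlations of deviations from group means between -0.0612 and 0.0419, so the numbers were not used as pairs. Alternatives changed the scaling, offset, filter, floor, variance model, arrays fitted and replicate block. Plots used Python 3.11.15 and matplotlib 3.10.9.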

Additional observations from a re-analysis of the deposited data

How the results depend on the processing

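The values and counts of the 6 genes, the counts of all probe sets and of the other plastid genes, and the values of the named cluster and partner genes were recomputed under 26 alternatives (25 for RPOTmp, which the filter on low signals removed). Correlations and values relative to the plastid median were not. The number of the 6 genes called was 4 or 5 for FAMA-EAR against control, 4 to 6 for FAMA-EAR against FAMA (6 where rpoA passed), and 0 for FAMA at 48 h and for the difference between the FAMA effects. At 4 h of FAMA it was 0 to 1 with 1 array left out (rpoA, without the first FAMA array) and 0 otherwise. For the 48 h against the 4 h controls it was 2 as reported, and 0 with array medians set equal, quantile normalization, a floor of 20 or no variance trend, 1 with an offset of 99 or the 3' to 5' ratio as covariate, 3 with array weights, and 0 to 3 with 1 array left out; the cause was not tested. Of 936 log2 fold changes of the 6 genes under alternatives, 32 had the other sign, each at a reported size of at most 0.322 and past the threshold in neither fit. The counts of all probe sets called ranged from 116 to 1217 (729 reported) for FAMA-EAR against control, 908 to 6877 (5168) for FAMA-EAR against FAMA, 3085 to 6795 (4913) for FAMA at 48 h, 207 to 1077 (664) for FAMA at 4 h, 941 to 2653 (1633) for the controls and 1802 to 3895 (3103) for the difference between FAMA effects. The 3' to 5' covariate gave the lowest count in 4 of these 6. Setting array medians equal moved the median change of all probe sets at 4 h of FAMA from 0.0939 to -0.000846 and their calls from 261 higher and 403 lower to 111 and 451; for the difference between FAMA effects the calls moved from 1500 higher and 1603 lower to 1444 and 964.

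With the replicate number as a block, 3 of the 6 genes were called between the control ages, since rpoC2 passed (-0.785, adjusted p = 0.0382), and the counts of the 6 in the other comparisons were as reported (5, 5, 0, 0 and 0). The numbers do not pair the samples. Among the cluster and partner genes, rpl20 passed against control with this block (adjusted p = 0.0457) and CLPP4 missed in the direct comparison at 48 h (adjusted p = 0.0543). The number of arrays limits the precision.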
